A study of Mus musculus with 2 samples.

Results

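The 9 integrin subunit genes described here were followed across the cell classes of lung mesenchyme after bleomycin or saline. They are the alpha subunit genes Itga1, Itga4, Itga5, Itga8, Itga11 and Itgav and the beta subunit genes Itgb1, Itgb3 and Itgb5. They were taken by symbol from the gene table of the deposited matrices, where all 9 were found among 32285 genes. Mice of both groups carried Lepr-CreERT2 and Rosa26-tdtomato and were 8 to 10 weeks old. In such mice a Cre made from the leptin receptor gene, active only with tamoxifen, marks cells with tdTomato for good. The sort was meant to keep cells so marked. The bleomycin group was 1 library of 10138 cell barcodes and the saline group 1 library of 8396, both of live tdTomato+ cells sorted as CD45-, EpCAM- and CD31-. The number of mice per library, the bleomycin dose, the collection day and the tamoxifen schedule are not given in the labels used here.

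Integrins are cell surface receptors built of one alpha and one beta chain, which tie the matrix outside the cell to the actin skeleton inside it. The beta chain of Itgb1 pairs with most alpha chains, while those of Itgb3 and Itgb5 pair with the alpha chain of Itgav. The dimers of Itga5, Itga8 and Itgav bind the RGD motif of fibronectin, nephronectin, osteopontin, vitronectin and the latent form of TGF-beta. The dimers of Itga1 and Itga11 bind collagens, and that of Itga4 binds VCAM-1 and fibronectin. In lung fibrosis, integrins that contain the Itgav chain are known for releasing TGF-beta from its latent form.

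Levels are given as CPM, which is the UMIs (counted transcript molecules) of a gene summed over the cells of a class and scaled to the same total for every class. Each bracketed range is an exact Poisson 95% interval, or for a ratio an exact binomial one. With 1 library per treatment there is no test of the treatment, and intervals cover counting error only, not differences between mice or libraries. A gene is called higher or lower where the libraries differed at least 2-fold, the higher one reached 10 CPM and the interval of the ratio was clear of 1. Barcodes held a median of 11662 UMIs in the bleomycin library and 6762 in the saline library, and 25 barcodes occurred in both. Cells grouped into 14 clusters, with all integrin genes kept out of the genes used for clustering, and clusters were named only as resembling a marker list. Mesenchymal cells numbered 9624 of 10001 used in the bleomycin library and 8115 of 8284 in the saline library. Despite the gate, 190 bleomycin cells and 109 saline cells matched epithelial or endothelial lists. A further 70 bleomycin cells and 18 saline cells matched the macrophage list but were led by immunoglobulin genes. These cells and the mesothelial-like cluster were kept out of the mesenchymal sums.

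The mix of classes differed widely between the libraries. Fibrotic-like cells, led by Spp1 and Cthrc1, numbered 2345 after bleomycin and 9 after saline, so this class was not compared. Alveolar-like cells, which made up 68.9% of the cells after saline, were 305 after bleomycin and 5707 after saline. Inflammatory-like cells, led by Saa3, Hp and Lcn2, were 4015 after bleomycin and 114 after saline. Adventitial-like cells were 1218 after bleomycin and 1429 after saline. Smooth muscle-like cells, which also matched the pericyte list, were 528 after bleomycin and 358 after saline. Peribronchial-like cells, which also matched the smooth muscle list, were 592 after bleomycin and 409 after saline. Proliferating cells, which also matched the fibrotic list, were 573 after bleomycin and 52 after saline. An interferon gene cluster of 48 bleomycin cells and 37 saline cells stayed unnamed and counted as mesenchymal.

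Over all mesenchymal cells, the alpha subunit transcripts changed in opposite directions. Itga8 was 139 CPM (137 to 141) after bleomycin and 502 CPM (497 to 508) after saline, which is 3.61-fold lower. Itga5 was 81.0 CPM (79.5 to 82.6) after bleomycin and 29.4 CPM (28.0 to 30.8) after saline, a ratio of 2.76 (2.62 to 2.90). Itga1 was 50.8 CPM (49.6 to 52.1) after bleomycin and 24.3 CPM (23.1 to 25.6) after saline, a ratio of 2.09 (1.97 to 2.21). Of the 9 members, 2 were thus called higher, where 5.56% of the 8020 genes measured were, and 1 was called lower, where 5.91% were. The 3 other members above 10 CPM did not reach 2-fold. Their ratios were 1.81 for Itgb5, 1.34 for Itgb1 and 1.33 for Itgav. Itga4, Itga11 and Itgb3 stayed below 10 CPM in both libraries, so only 6 of the 9 members could be called. The 6 had a median log2 ratio of 0.64, against -0.04 for all genes measured.

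Much of the difference in these sums went away when clusters present in both libraries were weighted alike. When the 8 clusters with at least 50 cells in each library were weighted by their saline shares, the ratio of Itga8 was 0.731, that of Itga5 was 1.13 and that of Itga1 was 1.28. None of the 3 was then 2-fold apart. The weighting left out the fibrotic-like cluster, with 2345 bleomycin cells and 9 saline cells, and the unnamed interferon gene cluster. The shift in the ratios thus holds both the new weights and the loss of the fibrotic-like cells, and the part of each was not tested. All values at the saline mix given below leave these clusters out too. By this weighting the median log2 ratio of the 6 members that could be called was 0.21. Itgb1 had a ratio of 1.14 by the same weighting and was above 1 in 8 of 8 clusters, from 1.07 to 1.95. The following paragraphs therefore give each member class by class.

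**Figure D1:**
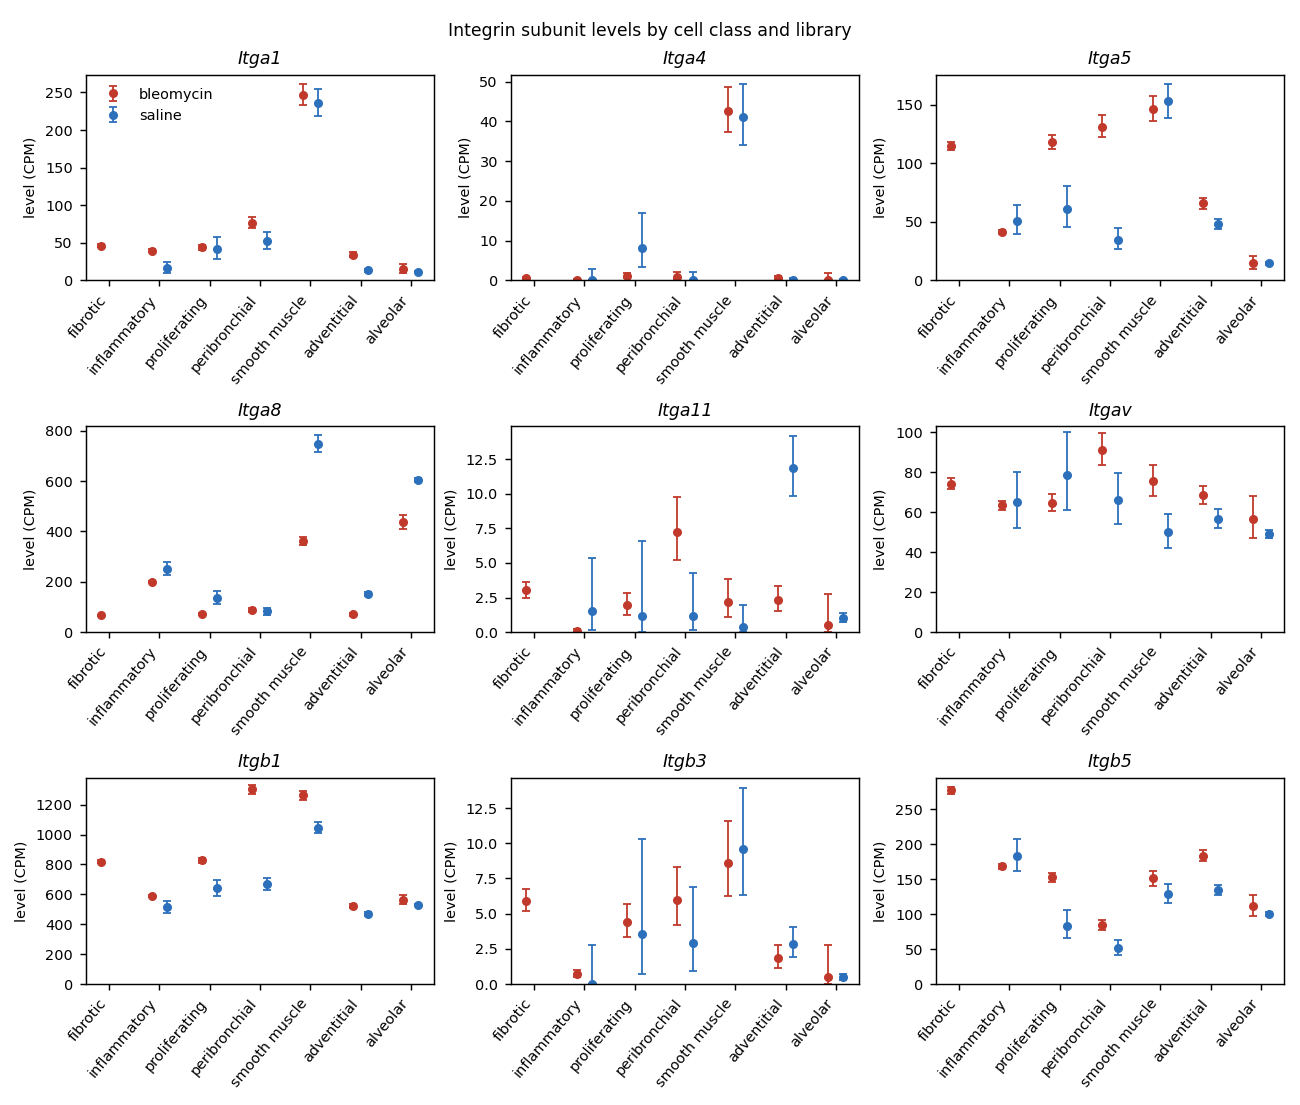
Level of each of the 9 integrin subunit genes (vertical axis, CPM) in 7 mesenchymal classes (horizontal axis), with bleomycin in red and saline in blue; bars are 95% counting intervals. Itga1 and Itga4 peak in smooth muscle-like cells of both libraries, while Itga8 is at 437 CPM after bleomycin and 604 CPM after saline in alveolar-like cells and at 66.2 CPM in fibrotic-like cells, which had too few saline cells to plot.

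For the 3 members called over all mesenchymal cells, the 250 bases upstream of the gene start are shown from RefSeq on GRCm38.p6, the assembly behind mm10. All lie on the minus strand and are written 5′ to 3′ along the gene. The windows are chr2:12301945-12302194 for Itga8, chr15:103366792-103367041 for Itga5 and chr13:115101965-115102214 for Itga1. Capitals mark the letters of the SP1 motif.
Itga8: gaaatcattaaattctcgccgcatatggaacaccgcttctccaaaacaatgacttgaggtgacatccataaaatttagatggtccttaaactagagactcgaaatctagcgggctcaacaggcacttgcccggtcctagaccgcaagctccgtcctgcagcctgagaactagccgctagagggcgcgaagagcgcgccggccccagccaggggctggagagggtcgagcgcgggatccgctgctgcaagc
Itga5: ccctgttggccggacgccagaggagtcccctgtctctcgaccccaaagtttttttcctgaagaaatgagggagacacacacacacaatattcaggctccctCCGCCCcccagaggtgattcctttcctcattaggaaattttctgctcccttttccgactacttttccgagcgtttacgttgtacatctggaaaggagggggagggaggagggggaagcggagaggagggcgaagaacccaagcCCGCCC
Itga1: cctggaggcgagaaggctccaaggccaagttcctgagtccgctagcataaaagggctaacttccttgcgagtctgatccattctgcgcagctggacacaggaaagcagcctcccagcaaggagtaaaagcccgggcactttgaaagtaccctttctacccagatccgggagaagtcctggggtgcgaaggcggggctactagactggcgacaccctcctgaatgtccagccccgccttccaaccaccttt
The letters of 4 motifs were searched on both strands, namely AP-1 (TGANTCA), SP1 (GGGCGG), SMAD (CAGACA) and the TATA box (TATAAA); no motif contains another. Itga5 held 2 SP1 matches, both as CCGCCC on the strand shown, and no match to the other motifs. Itga8 and Itga1 held none of the 4. Of the 8 members with a promoter in the table, Itgb5 held 3 SP1 matches and Itga4 and Itgb1 held 1 each, together with 1 SMAD match each, while Itgav and Itga11 held none. Among 32851 promoter windows of this length, 32.7% held the SP1 letters, 17.1% SMAD, 12.4% the TATA box and 6.75% AP-1. A match is only a run of letters in this window.

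Itga8 encodes the alpha chain of the nephronectin receptor and lies at chr2:12106632-12301922. Its level was 437 CPM (409 to 467) after bleomycin and 604 CPM (596 to 611) after saline in alveolar-like cells. In smooth muscle-like cells it was 362 CPM (345 to 378) after bleomycin and 749 CPM (717 to 782) after saline. These were the 2 classes with the most Itga8 in each library, in the opposite order. Fibrotic-like cells of the bleomycin library had 66.2 CPM (63.7 to 68.9), 6.60-fold less than the alveolar-like cells beside them (6.11 to 7.13). Inflammatory-like cells lay between, with 200 CPM (196 to 204) after bleomycin and 252 CPM (226 to 280) after saline, a ratio that was 0.303 and called lower at resolution 1, where clusters of other make-up took the inflammatory-like name. Among bleomycin cells, the intervals of proliferating cells at 72.3 CPM, adventitial-like cells at 70.4 CPM and fibrotic-like cells at 66.2 CPM overlapped from one to the next.

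Within classes Itga8 fell in adventitial-like and smooth muscle-like cells. In adventitial-like cells it was 70.4 CPM (65.8 to 75.2) after bleomycin and 152 CPM (144 to 160) after saline, a ratio of 0.463 (0.426 to 0.504). In smooth muscle-like cells the ratio was 0.483 (0.453 to 0.514). Of all genes, 3.6% were called lower in adventitial-like cells, and 4.41% higher and 2.43% lower in smooth muscle-like cells. Alveolar-like cells had a ratio of 0.724 (0.677 to 0.775) and proliferating cells of 0.530 (0.437 to 0.649), neither of them called. In peribronchial-like cells the levels were 86.9 CPM after bleomycin and 82.5 CPM after saline, with an interval of the ratio, 0.872 to 1.28, that held 1. Both calls sat close to the 2-fold limit. After each library had also lost the 5% of its cells that scored highest as doublets, the ratios were 0.502 in adventitial-like and 0.540 in smooth muscle-like cells, and neither was called.

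Adventitial-like and alveolar-like cells each held a pair of clusters in unlike proportions. In the adventitial-like cluster led by Pi16, Itga8 was 29.8 CPM in 785 bleomycin cells and 73.3 CPM in 671 saline cells. In the one led by Aqp1 and Adh7 it was 143 CPM in 433 bleomycin cells and 206 CPM in 758 saline cells. In the alveolar-like cluster led by Slc7a10 it was 618 CPM (562 to 679) in 131 bleomycin cells and 807 CPM (794 to 820) in 2893 saline cells. The other alveolar-like cluster had 339 CPM in 174 bleomycin cells and 456 CPM in 2814 saline cells. Itga8 was thus lower after bleomycin in each of the 4 clusters, with intervals that did not overlap in any. The summed alveolar markers also differed in adventitial-like cells, at 1708 CPM after bleomycin with 10 of 12 above 10 CPM and at 3440 CPM after saline with 9 of 12, none at 0 in either, and their part in the result was not tested. In the smooth muscle-like class, the summed smooth muscle markers moved with Itga8, at 28390 CPM after bleomycin and 46634 CPM after saline with 10 of 10 markers above 10 CPM and none at 0 in both. The summed pericyte markers were 1913 CPM after bleomycin and 1313 CPM after saline, with 11 of 11 above 10 CPM in both, and the part of either in the result was not tested.

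Itga5 encodes the alpha chain of the classical fibronectin receptor and lies at chr15:103344286-103366763. Smooth muscle-like cells had 146 CPM (136 to 157) after bleomycin and 153 CPM (139 to 168) after saline. Peribronchial-like cells had 131 CPM (122 to 141) after bleomycin and 34.7 CPM (26.5 to 44.8) after saline. Fibrotic-like cells of the bleomycin library had 115 CPM (111 to 118), 7.94-fold (5.52 to 11.9) the 14.4 CPM of its alveolar-like cells. The alveolar-like class was the lowest of those compared in both libraries, with 14.5 CPM after saline. In the order of bleomycin classes, smooth muscle-like, peribronchial-like, proliferating and fibrotic-like cells each had an interval that overlapped the next.

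Within classes Itga5 rose in peribronchial-like cells, with a ratio of 3.78 (2.90 to 5.01). In this class 6.4% of all genes were called higher and 6.74% lower. Its cells differed in depth, with a median of 8947.5 UMIs after bleomycin and 3385 after saline. The summed fibrotic markers also differed there, at 1764 CPM after bleomycin with 7 of 12 above 10 CPM and none at 0, and at 381 CPM after saline with 6 of 12 above 10 CPM and 3 at 0. The part of either in the result was not tested. Proliferating cells had 118 CPM after bleomycin and 61.1 CPM after saline, a ratio of 1.93 (1.47 to 2.60), which became 2.10 and was called when libraries were scaled by the median of ratios. Adventitial-like cells had a ratio of 1.37 (1.22 to 1.53), while the intervals of inflammatory-like, smooth muscle-like and alveolar-like cells held 1.

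Finer clustering at resolution 1 split the classes where Itga5 and Itga8 differed most. A finer cluster of 1650 bleomycin cells led by Thbs4 and Cthrc1, 99.6% of them fibrotic-like, had 137 CPM (132 to 141) of Itga5 and 50.2 CPM (47.6 to 52.8) of Itga8. An unnamed finer cluster of 1316 bleomycin cells led by Mmp8, Mlana and Gdf15, of which 51.7% were fibrotic-like, had 41.2 CPM (38.3 to 44.3) of Itga5 and 137 CPM (131 to 142) of Itga8. The fibrotic-like class as a whole had 115 CPM (111 to 118) of Itga5 and 66.2 CPM (63.7 to 68.9) of Itga8. The first finer cluster thus lay apart from its class, which was not uniform in these subunits. The unnamed cluster includes cells of other classes, and its fibrotic-like part was not summed alone. Of the bleomycin cells first placed with the inflammatory-like class, a finer cluster led by Ces1d and Mfap4 matched the alveolar list at this resolution. Its 679 bleomycin cells had 422 CPM (407 to 437) of Itga8 and 19.6 CPM (16.4 to 23.2) of Itga5. Peribronchial-like cells split into a larger cluster led by Pappa2 and Aspn and a smaller one led by Cnn1 and Tnnt2, which at this resolution matched the smooth muscle list best. The larger one had 92.9 CPM of Itga5 in 427 bleomycin cells and 29.3 CPM in 331 saline cells. The smaller one had 240 CPM of Itga5 in 165 bleomycin cells and 47.7 CPM in 78 saline cells, so the difference stood in both.

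Itgav, whose chain binds RGD ligands with several beta partners, lies at chr2:83724397-83806916 and varied least of the alpha members across classes. Its levels ran from 56.8 CPM in alveolar-like to 91.4 CPM in peribronchial-like cells after bleomycin, and from 49.2 CPM in alveolar-like to 78.8 CPM in proliferating cells after saline. The highest class was 1.61-fold (1.31 to 1.99) the lowest after bleomycin and 1.60-fold (1.24 to 2.04) after saline. Most neighbours in either order had overlapping intervals. Within classes no ratio was called, and the ratio furthest from 1 was 1.51 (1.24 to 1.85) in smooth muscle-like cells.

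Itga1 encodes a collagen-binding alpha chain and lies at chr13:114953096-115101964. The gene Pelo lies within it on the same strand and is counted separately in the files, so reads may be split between them. Smooth muscle-like cells had 247 CPM (234 to 261) after bleomycin and 236 CPM (218 to 255) after saline, and peribronchial-like cells came next with 76.3 CPM after bleomycin and 52.4 CPM after saline. The smooth muscle-like level was 16.5-fold (11.5 to 24.6) the alveolar-like one after bleomycin and 20.4-fold (18.1 to 22.9) after saline. Itga1 thus marked the smooth muscle-like class alike in both libraries, with a ratio between them of 1.05 (0.953 to 1.15).

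Itga1 rose in adventitial-like and inflammatory-like cells. In adventitial-like cells it was 33.6 CPM (30.5 to 37.0) after bleomycin and 13.2 CPM (11.1 to 15.6) after saline, a ratio of 2.54 (2.09 to 3.11). In the Pi16-led cluster of that class it was 36.8 CPM after bleomycin and 10.6 CPM after saline, and in the Aqp1-led one 27.9 CPM after bleomycin and 15.005 CPM after saline. In inflammatory-like cells it was 39.5 CPM (37.8 to 41.2) after bleomycin and 16.4 CPM (10.3 to 24.8) after saline, a ratio of 2.41 (1.58 to 3.85), the saline value resting on 22 UMIs from 114 cells. Summed markers of some other classes moved with Itga1 in adventitial-like cells, and those of others moved against it. The fibrotic markers summed to 921 CPM after bleomycin, with 8 of 12 above 10 CPM and none at 0, and to 271 CPM after saline, with 5 of 12 and 1 at 0. The inflammatory markers summed to 5595 CPM after bleomycin, with 10 of 11 above 10 CPM, and to 2632 CPM after saline, with 9 of 11. The smooth muscle markers summed to 1402 CPM after bleomycin, with 5 of 10 above 10 CPM, and to 676 CPM after saline, with 4 of 10. The pericyte markers were higher after bleomycin too, at 513 CPM against 412 CPM after saline. Lower after bleomycin were the alveolar markers, at 1708 CPM against 3440 CPM, and the peribronchial markers, at 500 CPM against 542 CPM. In inflammatory-like cells the fibrotic markers summed to 975 CPM after bleomycin and 629 CPM after saline, with 5 of 12 above 10 CPM in both and 4 at 0 after saline. The adventitial and pericyte sums there were also higher after bleomycin, while the alveolar, peribronchial and smooth muscle sums were lower. The part of these markers in the results was not tested. Of all genes, 3.24% were called higher in adventitial-like cells, and 3.29% higher and 2.03% lower in inflammatory-like cells. Peribronchial-like cells had a ratio of 1.46 (1.16 to 1.85), and the intervals of proliferating and alveolar-like cells held 1. In alveolar-like cells as named at resolution 1 the ratio was 2.02 and was called.

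Itga11, the other collagen-binding alpha chain, which is known from fibroblasts, lies at chr9:62677826-62783982 and was sparse. Over all mesenchymal cells it had 1.77 CPM (1.55 to 2.02) after bleomycin and 2.90 CPM (2.48 to 3.37) after saline. In adventitial-like cells it was 2.32 CPM (1.56 to 3.33) after bleomycin and 11.8 CPM (9.83 to 14.2) after saline, a ratio of 0.196 (0.126 to 0.296) from 29 UMIs after bleomycin and 121 UMIs after saline. It fell in this class, where 3.6% of genes were called lower. Both clusters of the class had less after bleomycin, with 1.75 CPM after bleomycin and 10.4 CPM after saline in the Pi16-led one and 3.35 CPM after bleomycin and 12.9 CPM after saline in the Aqp1-led one. In peribronchial-like cells it was 7.20 CPM after bleomycin, from 42 UMIs, and 1.18 CPM after saline, from 2 UMIs, and stayed under the 10 CPM limit. Fibrotic-like cells had 3.01 CPM (2.49 to 3.61).

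Itga4, whose chain binds VCAM-1 and fibronectin and is best known from leukocytes, lies at chr2:79255426-79333123. Among mesenchymal classes it passed 10 CPM only in smooth muscle-like cells, with 42.7 CPM (37.2 to 48.7) after bleomycin and 41.1 CPM (34.0 to 49.3) after saline. The other mesenchymal classes had at most 1.19 CPM after bleomycin and 8.23 CPM after saline, this last value coming from 7 UMIs in 52 proliferating cells. In alveolar-like cells it had 0 UMIs after bleomycin, a level of up to 1.49 CPM at a floor of 3 counts, and 3 UMIs after saline. The cluster led by immunoglobulin genes had 53.3 CPM (38.2 to 72.3) after bleomycin and 273 CPM (184 to 389) after saline, in 70 bleomycin cells and 18 saline cells. Macrophage markers in smooth muscle-like cells summed to 5.67 CPM after bleomycin, with 4 of 11 at 0, and to 10.3 CPM after saline, with 6 of 11 at 0. The T cell markers there summed to 7.83 CPM after bleomycin and 10.6 CPM after saline, the highest sums of the mesenchymal classes in either library, with 6 of 9 at 0 and none above 10 CPM in both. The part of either list in the Itga4 level was not tested. Cerkl overlaps Itga4 on the opposite strand.

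**Figure D2:**
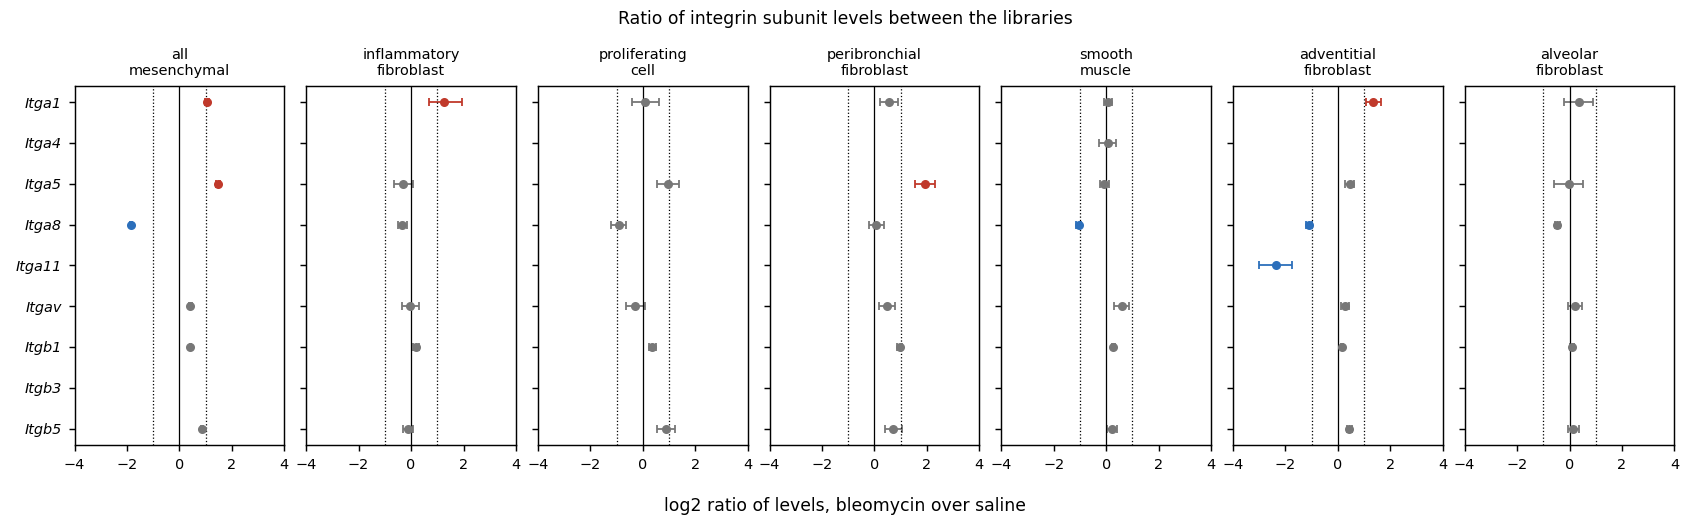
Log2 ratio of levels, bleomycin over saline (horizontal axis), for each integrin subunit gene (rows) in all mesenchymal cells and in the 6 classes compared, with 95% counting intervals; dotted lines mark 2-fold, and red and blue points are called higher and lower. Points are left out where neither library reached 10 CPM, and the alveolar panel holds no coloured point.

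Itgb1, the partner of most alpha chains, lies at chr8:128685654-128733200 and was the most abundant member in each named mesenchymal class except saline alveolar-like cells, where it had 531 CPM and Itga8 604 CPM. Peribronchial-like cells had 1303 CPM (1273 to 1332) after bleomycin and 669 CPM (631 to 709) after saline. Smooth muscle-like cells had 1262 CPM (1231 to 1293) after bleomycin and 1047 CPM (1009 to 1085) after saline. Adventitial-like cells were the lowest, with 519 CPM after bleomycin and 465 CPM after saline, so classes spanned 2.51-fold after bleomycin and 2.25-fold after saline. Fibrotic-like cells had 818 CPM (809 to 827), 1.45-fold (1.37 to 1.54) the alveolar-like level of the same library. Within classes no ratio was called. The peribronchial-like one, 1.95 (1.83 to 2.07), was just below 2-fold, and was called at 2.13 with resolution 1, at 2.11 as a mean over cells and at 2.00 without the highest doublet scores.

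Itgb5, a partner of the Itgav chain in the vitronectin receptor, lies at chr16:33829665-33949338. Fibrotic-like cells had the highest level after bleomycin, 277 CPM (272 to 282), which was 2.48-fold (2.18 to 2.85) that of alveolar-like cells. Peribronchial-like cells had the lowest in both libraries, with 84.5 CPM (77.2 to 92.3) after bleomycin and 51.2 CPM (41.0 to 63.2) after saline, the class where Itgb1 was high. Among the 6 classes compared, the ratio ran from 0.917 (0.808 to 1.05) in inflammatory-like cells to 1.83 (1.44 to 2.35) in proliferating cells, and none was called.

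Itgb3, the other beta partner of Itgav and the beta chain of the platelet fibrinogen receptor, lies at chr11:104608000-104670476. In mesenchymal classes it stayed under 10 CPM. It was 8.61 CPM (6.26 to 11.6) after bleomycin and 9.57 CPM (6.30 to 13.9) after saline in smooth muscle-like cells, and 5.91 CPM (5.17 to 6.73) in fibrotic-like cells. Over all mesenchymal cells it had 3.30 CPM after bleomycin and 1.42 CPM after saline, a ratio of 2.32 (1.83 to 2.96) that was not called for its low level. At the saline mix of clusters this ratio was 0.983, but it was 1.88 with the clusters of resolution 1 and 1.24 at the bleomycin mix. Epithelial and endothelial cells had more, with 26.4 CPM after bleomycin and 25.9 CPM after saline.

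Counted over members and classes, 54 pairs were compared in 6 classes, of which 3 were called higher and 3 lower. The higher ones were Itga1 in adventitial-like and inflammatory-like cells and Itga5 in peribronchial-like cells. The lower ones were Itga8 in adventitial-like and smooth muscle-like cells and Itga11 in adventitial-like cells. The share of all genes called in the same classes ran from 0.925% to 6.4% higher and from 0.99% to 8.08% lower. These shares count only genes that reached 10 CPM, while the 54 pairs include some that could not be called. Itgb3 reached 10 CPM in none of the 6 classes, Itga4 only in smooth muscle-like and Itga11 only in adventitial-like cells.  No member was called in alveolar-like cells, where 0.925% of genes were higher and 0.99% lower, nor in proliferating cells, where 3.77% were higher and 8.08% lower.

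The make-up of alpha subunit transcripts shows the same data within each class. The 3′ UMIs count molecules and are not divided by gene length, and genes may differ in how well they are captured. Over all mesenchymal cells Itga8 was 40.5% (40.1 to 41.0) of the 44734 UMIs of the 6 alpha members after bleomycin and 82.0% (81.6 to 82.4) of 36121 after saline. Itga5 was 23.6% after bleomycin and 4.79% after saline, Itgav 20.0% after bleomycin and 8.45% after saline, and Itga1 14.8% after bleomycin and 3.97% after saline. Alveolar-like cells remained dominated by Itga8, at 83.5% (81.1 to 85.7) after bleomycin and 88.8% (88.4 to 89.1) after saline. In fibrotic-like cells Itga5 led with 37.6% (36.7 to 38.5), followed by Itgav with 24.3%, Itga8 with 21.7% and Itga1 with 15.2%. In adventitial-like cells Itga8 was 29.2% (27.6 to 30.9) after bleomycin and 53.9% (52.1 to 55.8) after saline, with Itga5 at 27.3% after bleomycin and 17.0% after saline. In peribronchial-like cells Itga5 was 33.3% (31.4 to 35.3) after bleomycin and 14.7% (11.4 to 18.5) after saline.

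**Figure D3:**
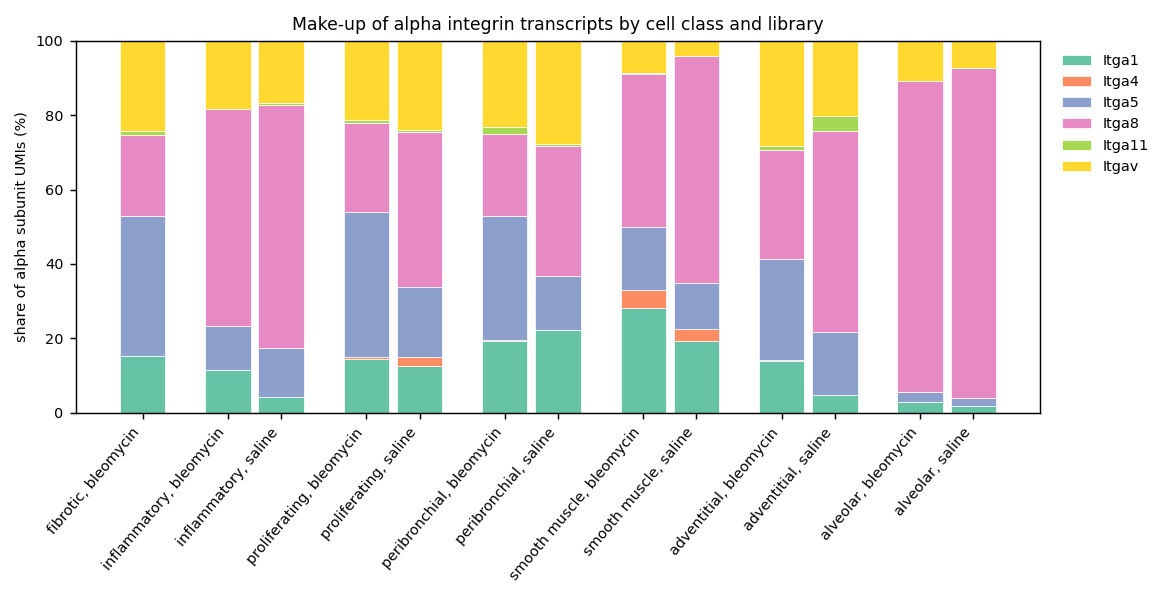
Share of the UMIs of the 6 alpha subunit genes that each gene takes (vertical axis, percent) in each mesenchymal class and library (horizontal axis, bleomycin left of saline). Itga8 takes 83.5% after bleomycin and 88.8% after saline in alveolar-like cells, and 21.7% in fibrotic-like cells, where Itga5 takes 37.6%.

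The share of cells with at least 1 UMI was read after thinning each cell to 2000 UMIs, which left out 153 bleomycin cells and 144 saline cells below that depth. Itga8 was seen in 23.1% (22.3 to 24.0, exact binomial 95% interval) of bleomycin cells and 55.2% (54.1 to 56.3) of saline cells. Without thinning the shares were 61.8% after bleomycin and 81.0% after saline. Epithelial and endothelial cells, taken as the background for Itga8, showed it in 1.89% (0.391 to 5.41) of bleomycin cells and 8.00% (3.52 to 15.2) of saline cells. Before thinning, these cells had median depths of 9416 UMIs after bleomycin and 5744.5 UMIs after saline. Fibrotic-like cells, at 12.0% (10.7 to 13.4), were above that background, while peribronchial-like saline cells, at 8.04% (5.56 to 11.2), were not. Itga5 was seen in 11.3% (10.7 to 12.0) of bleomycin cells and 4.86% (4.39 to 5.35) of saline cells, and without thinning in 41.8% after bleomycin and 14.0% after saline. In peribronchial-like cells at equal depth, Itga5 was seen in 15.2% (12.4 to 18.4) after bleomycin and 5.53% (3.50 to 8.25) after saline. Itga1 was seen in 9.15% (8.58 to 9.75) of bleomycin cells and 3.85% (3.44 to 4.30) of saline cells. No cell type sure to lack Itga5 or Itga1 was at hand. Epithelial and endothelial cells showed Itga5 in 5.03% (2.20 to 9.67) after bleomycin and 3.0% (0.623 to 8.52) after saline, and Itga1 in 6.29% (3.06 to 11.3) after bleomycin and 9.0% (4.20 to 16.4) after saline. The mesenchymal saline share of Itga1 was below that last value. Those epithelial and endothelial saline cells held 80 UMIs of Itga1, 41.9% of their alpha member UMIs, so they give no background for it. Smooth muscle-like saline cells had 236 CPM of Itga1.

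Transcripts of both chains of a dimer were also counted in single thinned cells. UMIs of both Itga8 and Itgb1 were present in 16.6% (15.8 to 17.3) of bleomycin cells and 36.1% (35.1 to 37.2) of saline cells. UMIs of both Itga5 and Itgb1 were present in 8.64% (8.08 to 9.22) of bleomycin cells and 3.19% (2.81 to 3.60) of saline cells. In epithelial and endothelial cells the Itga8 pair was seen in 1.89% (0.391 to 5.41) after bleomycin and 3.0% (0.623 to 8.52) after saline, and the Itga5 pair in 4.40% (1.79 to 8.86) after bleomycin and 1.0% (0.0253 to 5.45) after saline. In fibrotic-like cells the Itga5 and Itgb1 pair, at 12.3% (11.0 to 13.7), was more frequent than the Itga8 and Itgb1 pair, at 9.01% (7.88 to 10.3). Itgav and Itgb5 were seen together in 5.69% (4.78 to 6.71) of fibrotic-like cells and 3.09% (1.42 to 5.79) of alveolar-like cells of the same library, intervals that overlap. The adventitial-like share of 4.25% (3.16 to 5.57) overlapped the fibrotic-like one too. The other bleomycin shares were lower without overlap, at 2.88% (2.38 to 3.45) in inflammatory-like, 2.56% (1.44 to 4.19) in peribronchial-like, 2.14% (1.11 to 3.71) in proliferating and 2.12% (1.06 to 3.76) in smooth muscle-like cells. Transcripts do not show that a dimer reached the surface.

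**Figure D4:**
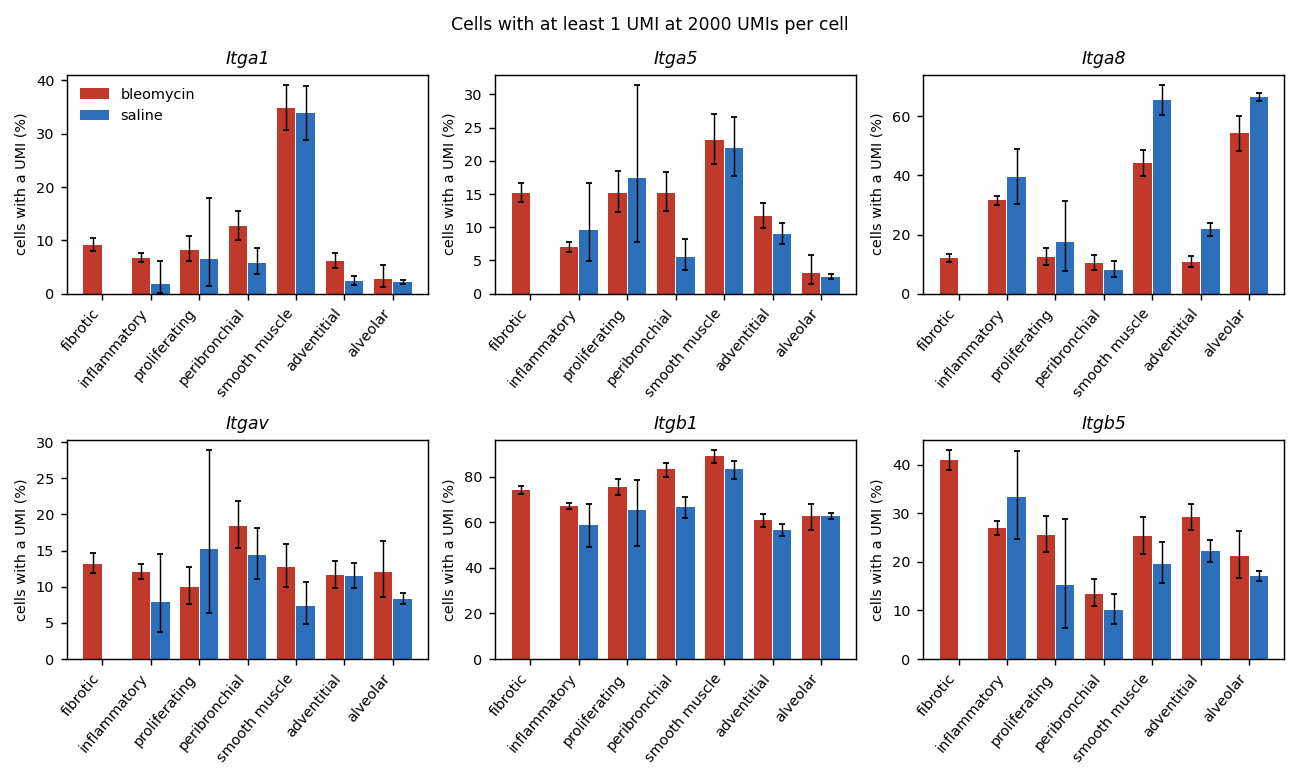
Percent of cells with at least 1 UMI (vertical axis) after thinning each cell to 2000 UMIs, for 6 integrin subunit genes in 7 mesenchymal classes, with bleomycin in red left of saline in blue and exact binomial 95% intervals. Itga5 in peribronchial-like cells is at 15.2% after bleomycin and 5.53% after saline, and the wide bars belong to 46 proliferating and 114 inflammatory-like saline cells.

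Of the 17 other integrin subunits listed, 2 reached 10 CPM over all mesenchymal cells and neither was called. Itga9, whose chain binds tenascin, had 51.6 CPM after bleomycin and 43.8 CPM after saline, with its highest level, 186 CPM, in bleomycin peribronchial-like cells, where saline cells had 75.4 CPM. Itgb8, a partner of the Itgav chain, had 13.6 CPM after bleomycin and 10.2 CPM after saline, and was highest in bleomycin adventitial-like cells at 34.9 CPM. Itga7, a laminin receptor chain of muscle, reached 37.2 CPM after bleomycin and 33.0 CPM after saline in smooth muscle-like cells, and Itga10 peaked there at 15.8 CPM. Itga3, Itga6 and Itgb6 were highest in epithelial and endothelial cells, and Itgb4 in mesothelial-like cells. Itgae, Itgal, Itgam, Itgax, Itgb2 and Itgb7 were highest in the cluster led by immunoglobulin genes, and Itga2b reached 14.1 CPM in saline peribronchial-like cells. Itgb6, an epithelial partner of Itgav, was 0.131 CPM after bleomycin and 0.0679 CPM after saline over all mesenchymal cells.

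Among ligand genes, those of fibronectin, tenascin and fibrillar collagens rose over all mesenchymal cells. Of 15 genes for fibronectin and RGD ligands, 11 were measured, 1 was lower and 5 were higher by the same rule. Over the same cells, 5.56% of all genes measured were called higher and 5.91% lower. The median log2 ratio of the list was 0.56 against -0.04 for all genes, and 0.48 at the saline mix. Fn1, encoding fibronectin, was 4038 CPM after bleomycin and 712 CPM after saline, a ratio of 5.67. Fn1 had 5748 CPM in fibrotic-like cells and, in peribronchial-like cells, 687 CPM after bleomycin and 44.2 CPM after saline. Spp1, encoding osteopontin and a leading gene of the fibrotic-like class, was 7441 CPM after bleomycin and 2.90 CPM after saline. Tnc, encoding tenascin, had a ratio of 10.3, and Postn, encoding periostin, of 7.46. The gene called lower was Npnt, encoding nephronectin, the ligand of the Itga8 dimer and one of the alveolar markers, at 416 CPM after bleomycin and 1071 CPM after saline. At the saline mix of clusters the ratio of Npnt was 0.953, that of Fn1 2.53, that of Tnc 2.26 and that of Postn 2.49.

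Collagen ligand genes had 10 of 10 measured, of which 1 was lower and 7 were higher by the same rule. Their median log2 ratio was 1.47, and 0.54 at the saline mix. For this list and those below, the shares of all genes measured were 5.56% higher and 5.91% lower. The largest ratios were those of Col4a2 at 3.59, Col1a1 at 3.96, Col5a1 at 3.98 and Col11a1, a fibrotic marker, at 204 from 1354 UMIs after bleomycin and 3 UMIs after saline, while Col13a1 was called lower at 0.416. At the saline mix these ratios were 1.82 for Col4a2, 1.60 for Col1a1, 1.68 for Col5a1, 13.7 for Col11a1 and 0.943 for Col13a1. Of 7 measured laminin and nidogen genes, 1 was called higher, Lama5, at 3.62, and its ratio at the saline mix was 2.32. Of the 3 measured ligands of the Itga4 dimer, Fn1 alone was called. Of 10 measured genes of latent TGF-beta, 2 were called higher, Ltbp2, a fibrotic marker, at 9.68 and Tgfb1 at 3.37, with a median log2 ratio of 0.43. At the saline mix that median was 0.15, the ratio of Ltbp2 was 4.42 and that of Tgfb1 was 1.38.

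Of 17 measured activators and adapters, 2 were called lower and none higher, Kank3 at 0.135 and Lims2 at 0.352. Over all mesenchymal cells, 5.56% of all genes measured were called higher and 5.91% lower. The median log2 ratio of the activators and adapters was -0.20, but 0.12 at the saline mix. Kank3 had a ratio of 0.589 and Lims2 of 0.567 at the saline mix of clusters. Of 23 focal adhesion kinases and scaffolds, 1 was higher, Actn4 at 2.18, and 3 were lower, Tns1 at 0.284, Tns2 at 0.433 and Fyn at 0.452. The list's median log2 ratio was 0.14, and 0.06 at the saline mix. None of the 4 called genes was 2-fold apart at that mix, with 1.10 for Actn4, 0.812 for Tns1, 0.945 for Tns2 and 0.679 for Fyn. Of 12 measured tetraspanins and surface partners, 2 were higher, Sdc1 at 16.6 and Thy1 at 7.11. The median log2 ratio of that list was -0.21, and -0.04 at the saline mix. Sdc1 had a ratio of 3.70 and Thy1 of 4.29 at the saline mix.

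The genes whose levels most resembled each member were found over 17 sums, one per class and library with at least 50 cells, among 11400 genes. Not all of these sums are mesenchymal. They include the mesothelial-like cells and the cluster led by immunoglobulin genes of the bleomycin library. The epithelial and endothelial cells of both libraries are included too. The part of these sums in the correlations was not tested. All sums share 2 libraries and their depth, so the correlations are descriptions. Itga5 was closest to S100a4, with a Pearson r of 0.92 on the log2 scale, and to Postn at 0.89. Itga8 was closest to Ppp1r14a at 0.96 and Sh3bgrl at 0.93. Itga1 was closest to Tstd3 at 0.95 and Adgrl2 at 0.92, Itga4 to Trac at 0.91 and 2310022A10Rik at 0.91, and Itga11 to Trp53i13 at 0.74 and Rab23 at 0.69. Itgav was closest to Trim41 at 0.88 and Zmpste24 at 0.85, and Itgb1 to Tmem26 and Ppp1r1a, both at 0.90. Itgb3 was closest to Pdgfa and Stxbp6, both at 0.94, and Itgb5 to Nkd2 at 0.89.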

How the data were processed

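Each library was deposited as a matrix of raw UMI counts, whole numbers for each gene in each barcode, made with the 3′ v3 kit of 10x Genomics per the labels' protocols and processed with Cell Ranger 6.1.2 on mm10 per the submitters' processing notes. The members, the gene lists and the comparisons were chosen with earlier results of these data known. Cells with at least 500 genes and at most 10% mitochondrial UMIs were kept. Scrublet (scanpy 1.11.5, 7% doublets assumed) called 66 doublets (0.790%) in the saline library, which were removed, and 0 in the bleomycin library, where the caller did not work and doublets remain. Both libraries were clustered together without integration on 2000 variable genes with 30 integrin genes excluded, 30 principal components, 15 neighbours and Leiden resolution 0.5 (igraph 0.11.9, scikit-learn 1.9.0). A cluster took a name where at least 3 markers of 1 of 19 lists were raised 1.5-fold and the list's median log2 fold reached 0.5 and at least a share of 0.5 of its members was at 10 CPM or more, with 10 CPM added to the levels in each fold. UMIs were summed per class and library, and 134732429 bleomycin UMIs and 60937359 saline UMIs set the depth. Classes with at least 50 cells in each library were compared. Intervals came from scipy 1.17.1. The calling rule was tried on simulated counts with planted folds and counting error only. That trial cannot speak to differences between mice or libraries. The named genes are all members, other subunits at 10 CPM in any class, up to 4 called genes of each list with the largest ratios and the 2 genes most alike to each member, of which 1 is not reported here; Npnt and Col13a1, each the lone lower call of its list, were named after their values were seen. Gene positions are from GENCODE for GRCm38.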

Additional observations from a re-analysis of the deposited data

How the results depend on the processing

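No paired analysis was possible because each treatment had 1 library. Over all mesenchymal cells the 2 higher and 1 lower calls stood under resolution 1, with integrin genes allowed in the clustering, with a stricter cell filter, without the highest doublet scores, with median of ratios scaling and as a mean over cells. There the ratio ranged from 2.07 to 2.49 for Itga1, from 2.60 to 2.82 for Itga5 and from 0.276 to 0.312 for Itga8. Resolution 1 and the integrin genes allowed only regroup cells, so these sums held nearly the same cells and could hardly change. The pairs called lower were 5, not 3, with no minimum level, which added Itga11 in inflammatory-like and Itga4 in proliferating cells. The pairs called higher were 8, not 3, with a limit of 1.5-fold, and 5 at resolution 1. There Itga1 in alveolar-like (2.02) and Itgb1 in peribronchial-like cells (2.13) were added, and Itga8 in inflammatory-like cells was called lower (0.303). At that resolution 1 inflammatory-like cluster held 827 bleomycin cells and 2 saline cells. The other, led by Cxcl9 and Ifit3, held 74 bleomycin cells and 266 saline cells, so the inflammatory-like ratios there set unlike cells side by side. Of the alveolar-like clusters, 1 held 679 bleomycin cells and 35 saline cells. Over all mesenchymal cells Itgb3 was also called higher with no minimum level and Itgb5 with the 1.5-fold limit. At resolution 1 the smooth muscle-like class also held the cluster led by Cnn1 and Tnnt2. Itga8 in smooth muscle-like cells was not called there (0.506), as a mean over cells (0.521) or without the highest doublet scores (0.540). Itga8 in proliferating cells was called lower (0.430) without those scores. Itga1 and Itga11 in adventitial-like cells, Itga1 in inflammatory-like cells and Itga5 in peribronchial-like cells were called under all 8 alternatives. No minimum level and the 1.5-fold limit only loosen the rule, so they could not remove a call. At resolution 1 the inflammatory-like call of Itga1 rested on clusters of other make-up. With the stricter cell filter 5 classes remained to compare. Thinning to 1000 UMIs, or none, moved the shares of cells but in these settings bleomycin stayed below saline for Itga8 and above it for Itga5. Itga4, Itga11 and Itgb3 are limited by depth in most classes, and 1 library per treatment leaves differences between mice unmeasured.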
